A study of Rattus rattus with 8 samples.

Results

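Genes of fatty acid synthesis, storage and transport, several of which are active in sebaceous glands, were followed in the whisker hair follicles of rats after a simulated blast. The list held 10 genes, each given by a RefSeq mRNA accession, and every probe whose accession on the array equalled a listed one was taken. Of the 10 genes, 9 had a probe, 1 probe each, among the 30367 different probes of the array, and 8 were well above background on all 8 arrays. Pparg (NM_013124), a nuclear receptor that drives the differentiation of fat cells and sebaceous cells, was dropped because no probe carried its accession. The symbols are those listed with the accessions.

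A hair follicle is joined to a sebaceous gland, whose cells fill with lipid and burst to release sebum onto the hair. Such cells make fatty acids from acetyl-CoA, place double bonds in them, join them to glycerol or long alcohols, and keep the products in lipid droplets until release. Keratinocytes of the follicle also make and carry fatty acids, and the skin around it holds fat cells.

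The samples were hair follicles from adult male Sprague-Dawley rats, with several whisker follicles of a rat pooled into 1 RNA sample and 1 array per rat. The sham control group, which received no shock wave, had 3 rats, named C1, C2 and C3. The 5 blast rats had their heads exposed to a single shock wave. Its pressure was 145 kPa (M2 and M3), 175 kPa (H1) or 200 kPa (XH1 and XH3). Rats of both groups were anaesthetised, since the paper compares their times to wake, and it names isoflurane for the exposure. The rats were killed after a shorter or a longer observation period, and which rat had which is not known here, so that this time cannot be told apart from the other differences between rats. The labels name the organism as Rattus rattus, while the study's rats are Rattus norvegicus. Markers that define sebaceous cells, fat cells or hair keratinocytes could not be matched to accessions and were not analysed here, so the cells that carried the transcripts were not identified.

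The 8 arrays shared 1 slide and 1 scan day. Before normalization, the arrays of C1, C2 and C3 had a median processed signal of 280.5, 90.9 and 105.8 over the 58717 non-control spots. Those of M2 and M3 had 179.9 and 93.3, that of H1 had 142.1, and those of XH1 and XH3 had 114.1 and 116.9. The share of spots well above background ran from 65.9% to 73.0%. Gene levels below are log2 of the quantile-normalized intensity, and a difference of 1 on this scale is a doubling. Levels were compared between rats and not between genes, since each probe binds with its own strength.

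Blast and sham control rats overlapped in all 8 measured genes. The mean level was higher in the blast rats for 5 genes (Scd1, Scd2, Dgat1, Fabp5 and Fabp4) and lower for 3 (Acaca, Fasn and Plin2), with differences from -0.37 (Plin2) to 0.25 (Fabp4). In limma, 0 of the 8 genes had an adjusted p under 0.05, against 0 (0%) of the 30366 probes tested. At an unadjusted p under 0.05, limma called 0 of the 8, against 850 of all probes (2.80%), and the lowest unadjusted p among the 8 genes was 0.290 (Plin2). The adjusted p from limma was 0.9999 for each of them. Groups that did not overlap were seen in 0 of the 8 genes and in 605 (2.0%) of the 30217 probes measured on all arrays. The median difference was 0.09 over the 8 genes and 0.00 over all probes. Over the genes it ran from -0.08 (without XH1) to 0.18 (with the slide's side as a block) among the alternatives and was negative in 6 of 19, so it had no settled sign. Exact permutation tests, two-sided and over all 56 divisions of the rats into 3 and 5, cannot give a p below 0.0179, and p lay between 0.357 and 0.982 for the 8 genes.

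**Figure D1:**
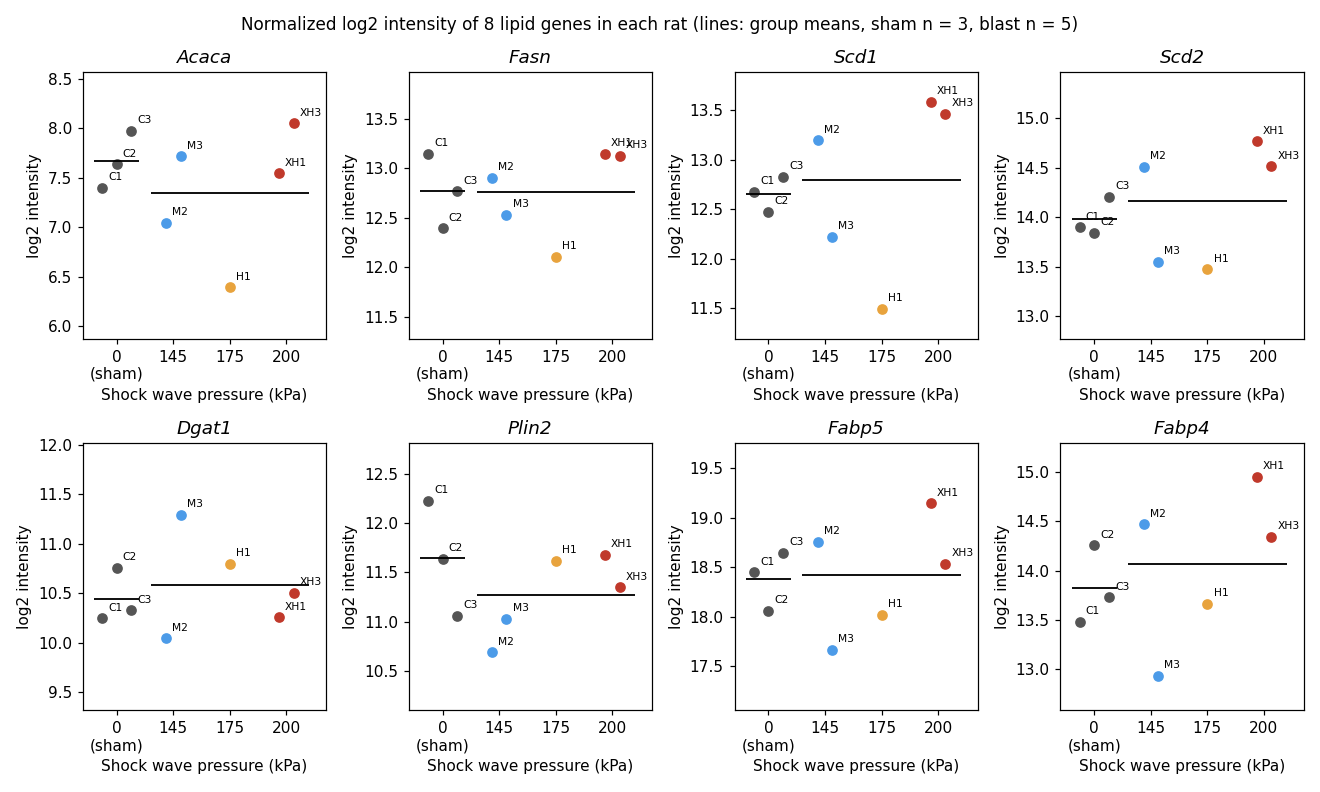
Normalized log2 intensity of 8 lipid genes in each rat, set against shock wave pressure in kPa with sham control rats at 0. Each point is 1 rat and each horizontal line a group mean (3 sham, 5 blast rats); the groups overlap in every panel, and H1 and M3 are the lowest blast rats for Fasn, Scd1, Scd2, Fabp5 and Fabp4.

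Synthesis of fatty acids begins with acetyl-CoA carboxylase alpha, the product of Acaca (NM_022193), which makes malonyl-CoA. Its log2 level was 7.40, 7.64 and 7.98 in C1, C2 and C3 of the sham control group, 7.04 and 7.72 in M2 and M3, 6.39 in H1, and 7.54 and 8.05 in XH1 and XH3. H1 was the lowest of the 8 rats and XH3 the highest, and the other 3 blast rats lay between them, 2 of these within the range of the sham control rats. The group means were 7.67 ± 0.29 (SD, n = 3) and 7.35 ± 0.65 (SD, n = 5). The difference of -0.32 had a 95% interval from -1.20 to 0.55 in limma and an exact permutation p of 0.500. Because RNA of whole follicles was measured, fewer cells of a type and less RNA per cell cannot be told apart in this or any gene below.

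Fatty acid synthase, encoded by Fasn (NM_017332), builds palmitate from malonyl-CoA. The log2 level of Fasn was 13.15, 12.39 and 12.77 in C1, C2 and C3, 12.90 and 12.53 in M2 and M3, 12.10 in H1, and 13.15 and 13.12 in XH1 and XH3. C1, XH1 and XH3 were high and lay close together, H1 was the lowest rat, and the groups covered much the same range. Means of 12.77 ± 0.38 (SD, n = 3) in sham control and 12.76 ± 0.44 (SD, n = 5) in blast rats gave a difference of -0.01, with a 95% interval from -0.69 to 0.67 and an exact permutation p of 0.982.

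The stearoyl-CoA desaturases Scd1 (NM_139192) and Scd2 (NM_031841) place a double bond in saturated fatty acids, a step that sebum lipids and membrane lipids depend on. For Scd1 the log2 level was 12.67, 12.47 and 12.83 in C1, C2 and C3, 13.20 and 12.22 in M2 and M3, 11.49 in H1, and 13.59 and 13.47 in XH1 and XH3. The 3 sham control rats lay within a narrow band, with 3 blast rats (M2, XH1 and XH3) above all of them and 2 (M3 and H1) below all of them. The SD was 0.18 in sham control (n = 3) and 0.90 in blast rats (n = 5), around means of 12.66 and 12.79. The difference in means was 0.13, with a 95% interval from -1.03 to 1.29 and an exact permutation p of 0.857.

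Scd2 had log2 levels of 13.90, 13.84 and 14.21 in C1, C2 and C3, 14.51 and 13.55 in M2 and M3, 13.47 in H1, and 14.77 and 14.51 in XH1 and XH3. As for Scd1, M2, XH1 and XH3 lay above all sham control rats and M3 and H1 below all of them, and the order of the 8 rats from highest to lowest was identical for both genes. The group means were 13.98 ± 0.20 (SD, n = 3) in sham control and 14.16 ± 0.61 (SD, n = 5) in blast rats. Their difference of 0.18 had a 95% interval from -0.63 to 0.98 and an exact permutation p of 0.643. A difference between the groups in the size of the spread was not tested.

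Among the genes of lipid storage, Dgat1 (NM_053437) encodes an enzyme of the last step of triglyceride synthesis. Its log2 level was 10.25, 10.76 and 10.33 in C1, C2 and C3, 10.04 and 11.29 in M2 and M3, 10.80 in H1, and 10.25 and 10.51 in XH1 and XH3. Here M3 and H1 were the highest of the 8 rats and M2 the lowest, which placed M2, M3 and H1 on the opposite sides from their places for the desaturases. With means of 10.44 ± 0.27 (SD, n = 3) in sham control and 10.58 ± 0.49 (SD, n = 5) in blast rats, the difference was 0.13, its 95% interval ran from -0.56 to 0.83, and the exact permutation p was 0.696.

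Plin2 (NM_001007144) encodes perilipin 2, a protein that coats lipid droplets. The log2 level of Plin2 was 12.22, 11.64 and 11.06 in C1, C2 and C3, 10.69 and 11.03 in M2 and M3, 11.62 in H1, and 11.68 and 11.35 in XH1 and XH3. C1 was the highest rat, both rats at 145 kPa lay below all sham control rats, and 0 of the 5 blast rats lay above all of them. The sham control mean was 11.64 ± 0.58 (SD, n = 3) and the blast mean 11.27 ± 0.41 (SD, n = 5). The difference of -0.37 equals a fold of 0.774 with a 95% interval from 0.458 to 1.31, and its exact permutation p was 0.357. It depended on single sham control rats, being -0.08 without C1 and -0.66 without C3, and was -0.0055 with array quality weights.

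The fatty acid binding proteins carry fatty acids within the cell. Fabp5 (NM_145878) encodes the form typical of epidermal keratinocytes. Its log2 level was 18.45, 18.06 and 18.65 in C1, C2 and C3, 18.76 and 17.66 in M2 and M3, 18.02 in H1, and 19.15 and 18.53 in XH1 and XH3. XH1 and M2 lay above all sham control rats, H1 and M3 below all of them, and XH3 among them. No spot of the probe was saturated. Means of 18.39 ± 0.30 (SD, n = 3) in sham control and 18.42 ± 0.59 (SD, n = 5) in blast rats differed by 0.04, with a 95% interval from -0.77 to 0.85 and an exact permutation p of 0.893.

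Fabp4 (NM_053365) encodes the form known from fat cells, and is also made in capillary endothelium and macrophages. In C1, C2 and C3 its log2 level was 13.48, 14.25 and 13.73, against 14.47 and 12.93 in M2 and M3, 13.66 in H1, and 14.95 and 14.34 in XH1 and XH3. M2, XH1 and XH3 lay above all sham control rats, M3 below all of them, and H1 among them. The mean was 13.82 ± 0.39 (SD, n = 3) in sham control and 14.07 ± 0.78 (SD, n = 5) in blast rats. The difference of 0.25 had a 95% interval from -0.81 to 1.31, the furthest above 0 among the 8 genes, and an exact permutation p of 0.571.

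Lpl (NM_012598), whose product lipoprotein lipase frees fatty acids from circulating triglycerides at the capillary wall, was not well above background on any of the 8 arrays. Its processed signal before normalization was 6.51, 4.36 and 3.83 in C1, C2 and C3, 4.70 and 4.75 in M2 and M3, 5.25 in H1, and 3.76 and 4.40 in XH1 and XH3. These values lay close to the lowest signal on each array, which was between 3.07 and 4.90, and no fold or order of the rats was taken from them. The probe had 10 spots per array, and 6 of its spots in all were left out as outliers. A probe near background gives only an upper bound on the transcript it binds.

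**Figure D2:**
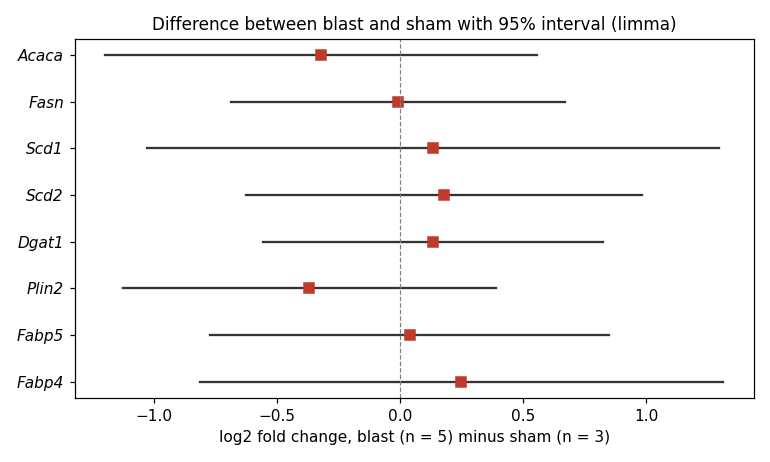
Difference in log2 intensity between 5 blast and 3 sham control rats for 8 lipid genes, as squares, with lines for the 95% interval from limma. Differences run from -0.37 (Plin2) to 0.25 (Fabp4), and each interval includes 0.

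The intervals show what 3 and 5 rats could resolve. Across the 8 genes the limits reached from -1.20 (Acaca) to 1.31 (Fabp4), so that for Acaca a level lower in blast rats by a factor of 2.29, and for Fabp4 one higher by 2.48-fold, lay at the edge of what the data allow. The within-group SD of the 8 genes lay between 0.42 (Fasn) and 0.74 (Scd1) with a median of 0.51. Over the 17468 probes well above background on all arrays the median was 0.39, and all 8 genes were above it. The SD between spots of 1 probe on 1 array had a median of 0.056 over the 8 genes, less than the SD between rats of a group in each of them. Between the lowest and the highest rat, the range was 2.09 for Scd1 and 2.01 for Fabp4, which are 4.27-fold and 4.04-fold, and 1.04 for Fasn, the narrowest of the 8.

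The same rats stood at the ends of the range in several genes. XH1 was the highest of the 8 rats in 5 genes (Fasn, Scd1, Scd2, Fabp5 and Fabp4), and it was the highest for 19.1% of the probes well above background on all arrays. For Fasn, XH1 and C1 were both at 13.15 after rounding. H1 was the lowest rat in 4 genes (Acaca, Fasn, Scd1 and Scd2) and for 21.7% of those probes, M3 in 2 (Fabp5 and Fabp4) and for 29.8%, and M2 in 2 (Dgat1 and Plin2) and for 7.64%. As a median over the 8 genes, the deviation from the mean of all rats was 0.53 in XH1, 0.36 in XH3 and 0.24 in M2. It was 0.05, -0.04 and -0.07 in C3, C2 and C1, and -0.45 and -0.51 in M3 and H1. The 3 sham control rats thus lay between the blast rats, with 3 of these above and 2 below. These orders were read off after the values were seen and carry no test.

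H1 and M3 were the 2 arrays in column 4 of the slide, so position on the slide and rat cannot be told apart for them. Together they were the lowest 2 of the 5 blast rats in 5 of the 8 genes (Fasn, Scd1, Scd2, Fabp5 and Fabp4), as they were for 5277 (30.2%) of the 17468 probes well above background on all arrays. They were the highest 2 in 1 gene, Dgat1, and for 3318 (19.0%) of those probes. H1 and M3 had received different pressures.

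**Figure D3:**
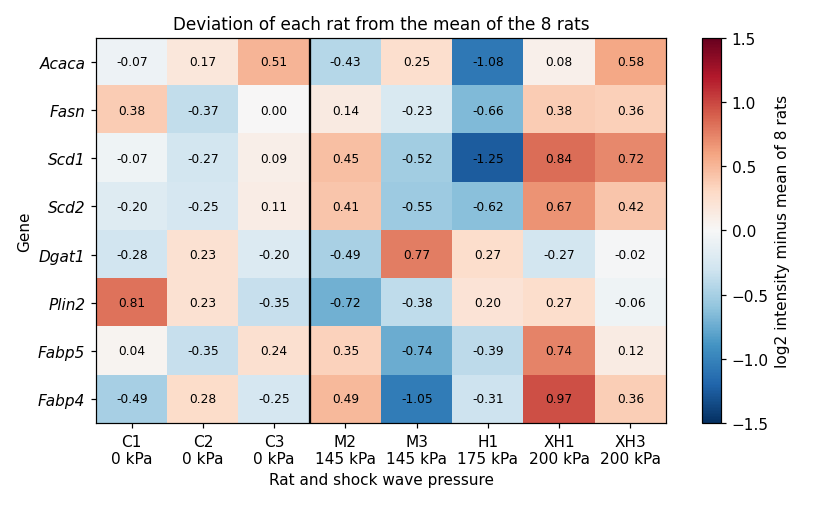
Deviation of each rat's log2 intensity from the mean of the 8 rats, for 8 lipid genes, with sham control rats to the left of the black line and blast rats in order of pressure to the right. XH1, XH3 and M2 have positive values for Scd1, Scd2, Fabp5 and Fabp4, and M3 and H1 negative ones.

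Whether the genes followed pressure was asked among the 5 blast rats alone, with a straight line in limma. As a change in log2 level from 145 to 200 kPa, a span of 55 kPa, the estimate was positive for 7 genes and negative for 1, Dgat1 (-0.28). The median was 0.60 over the 8 genes and 0.03 over all probes. Over the genes it was 0.95 without M2, 0.33 without XH1, 0.33 without M3 and 0.03 when the sham control rats were added at 0 kPa. At an unadjusted p under 0.05, 0 of the 8 genes passed, against 860 (2.84%) of the 30236 probes tested. After adjustment in limma, 0 of the 8 and 0 (0%) of all probes passed, and the adjusted p of each of the 8 genes was 0.9999. Since each line rests on 5 rats, with 1 of them at 175 kPa, the estimates have wide intervals. The arrays of XH1, XH3 and M3 were in row 2 of the slide, and those of M2 and H1 in row 1. Pressure and slide row were thus partly tied, and row was not a block for the line.

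Fabp4 had mean levels of 13.70 at 145 kPa and 14.64 at 200 kPa, and 13.66 in the rat at 175 kPa. Its change of 0.92 had a 95% interval from -0.79 to 2.63, and was 0.30 without M3, 0.55 without XH1, 1.74 without M2 and 0.12 with all 8 rats. With the slide's side as a block, an alternative chosen after the data were seen, it was 0.94 and passed an unadjusted p under 0.05 (0.0448, adjusted 0.891 in limma), as did 4.77% of all probes. For Scd1 the means were 12.71 at 145 kPa and 13.53 at 200 kPa, with 11.49 in the rat at 175 kPa between them in pressure and below both in level. The change of 0.76 for Scd1 had an interval from -1.44 to 2.95, and that of 0.58 for Scd2 one from -0.87 to 2.03. With 1 rat left out, the Scd1 line ran from 0.39 (without XH1) to 1.497 (without M2) and the Scd2 line from 0.28 (without M3) to 1.19 (without M2), and with all 8 rats they were 0.079 and 0.084. The lines of Fabp5 (0.61), Fasn (0.39) and Acaca (0.37) were also positive, as was that of Plin2, given below. Their intervals also included 0. The Acaca line turned to -0.080 without XH3 and to -0.078 with all 8 rats, where that of Fasn was 0.018 and that of Fabp5 0.043. With 1 rat left out, the Fabp5 line ran from 0.19 (without M3) to 1.21 (without M2) and the Fasn line from 0.22 (without XH1) to 0.71 (without M2).

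Plin2 had the lowest p of the 8 lines, 0.0678 unadjusted in limma, with a change of 0.67 and an interval from -0.08 to 1.41. With 1 rat left out, this line ran from 0.44 (without M2) to 0.89 (without XH3). The mean level of Plin2 was 10.86 at 145 kPa, 11.62 in the rat at 175 kPa and 11.52 at 200 kPa, against 11.64 in the sham control rats. The level at the lowest pressure was thus further from sham control than those at the higher pressures. For Dgat1, the 1 gene with a negative line, the means were 10.67, 10.80 and 10.38 at 145, 175 and 200 kPa and 10.44 in sham control. Its sign rested on M3, since the line was 0.26 without that rat, and it was 0.026 with all 8 rats, where that of Plin2 turned to -0.077.

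Several of these values moved when single rats were left out or under other settings. Without M2, 3 genes passed an unadjusted p under 0.05 in the line on pressure, namely Fabp4 (1.74), Fabp5 (1.21) and Dgat1 (-0.91), with adjusted p from 0.297 to 0.315 in limma, while 4744 (15.7%) of all probes passed at that threshold. In the comparison of blast with sham control, the direction turned in at least 1 of the 16 alternatives that changed the fitted differences for Fasn, Scd1, Dgat1 and Fabp5. It did not turn for Acaca, Scd2, Plin2 and Fabp4, but their differences came close to 0 in some. That of Acaca was -0.08 without H1, and those of Scd2 and Fabp4 were both 0.03 without XH1. In other alternatives they were larger than reported. Acaca was at -0.55 with the slide's row as a block, Scd2 at 0.35 without H1, and Fabp4 at 0.58 with array quality weights.

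Beside these genes, a marker of red cells had higher mean levels in the blast rats. Hbb (NM_033234) encodes the beta chain of haemoglobin and was the only 1 of the 3 red cell markers that could be matched to an accession. That match came from the study's primer list, whose tested genes the paper took from those it found changed on these arrays. The difference in Hbb is therefore not an independent result. The brighter of its 2 probes had log2 levels of 10.21, 13.96 and 11.64 in C1, C2 and C3, 17.42 and 13.34 in M2 and M3, 15.37 in H1, and 13.31 and 14.43 in XH1 and XH3. M2 was the highest rat and C1 the lowest, and C2 lay among the blast rats. The blast mean was higher by 2.84, with a 95% interval from 0.11 to 5.57, an exact permutation p of 0.0893 and an adjusted p of 0.9999 in limma. The dimmer probe was higher by 3.46, with an exact permutation p of 0.0357 and the same adjusted p. In limma both probes had an unadjusted p under 0.05, as had 2.80% of all probes. The part of blood, or of any other tissue in the pulled follicles, in the levels of the lipid genes was not tested.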

How the data were processed

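Total RNA of whisker follicles was hybridized to one-colour Agilent rat arrays, 1 per rat. The authors deposited the intensity of each spot from Feature Extraction (10.7.1.1 in the file headers), already background-subtracted, and a table of log2 values that they had quantile normalized. Columns of that table and log2 intensities of the same arrays correlated at 0.998 or more. Here, control and outlier spots were dropped, the log2 intensities of a probe's spots were averaged, quantile normalization was applied across arrays, and a lower limit of 3 was set before returning to log2. Quantile normalization and a limit of 3 are named in the study's methods, where the limit applies to measured spots. No spot here was under 3 (lowest processed signal 3.07), so setting it on spots would have changed no value.

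Blast and sham control were compared with limma 3.58.1 in R 4.3.3 (lmFit, eBayes; pressures pooled), with Benjamini-Hochberg adjustment over 30366 probes, each measured on 2 or more arrays per group. Limma stood for the one-way analysis of variance in the methods, which was an alternative. The line on pressure was fitted likewise over the 5 blast rats, for probes with a value in each. These steps were tested on simulated data. Precision is limited by the number of rats.

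All 10 listed genes were to be named whatever they showed, and the probe with the highest mean intensity was to stand for a gene. Each of the 9 genes had 1 probe. The members and lists were chosen with earlier results of these data known. Further lists of lipid genes and cell type markers were not analysed here, apart from Hbb, whose accession is paired with its symbol in the study's primer list: the gene table used here (Rattus rattus, Rrattus_CSIRO_v1) matched 0 of the accessions on the array. The symbols of the listed genes could therefore not be checked against an annotation.

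Alternatives were 75th percentile scaling, normexp (offset 50) on the median signal, a limit of 8, only probes well above background on 3 or more arrays, the methods' analysis of variance, array quality weights, blocks for the title number or the slide row, the deposited log2 values, 4 groups of pressure, and each rat left out. For the line on pressure they were all 8 rats, 200 against 145 kPa, the 75th percentile, the deposited values, and each blast rat left out. A block for the slide's side (columns 1 and 2 against 3 and 4) was added after the data were seen.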

Additional observations from a re-analysis of the deposited data

How the results depend on the processing

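Over the 19 alternatives for blast against sham control and the 10 for the line on pressure, 0 of the 8 lipid genes had an adjusted p under 0.05. In the first comparison 0 genes also passed unadjusted, or were without overlap, in any alternative. The limit of 8, the filter and the analysis of variance cannot move these genes' differences, and 200 against 145 kPa is the same fit as leaving out H1. Apart from these, 10 of 64 gene differences under other settings reversed, as did 9 of 64 with 1 rat left out, and for the lines 3 of 32 and 2 of 40. The cause was not tested. With 3 and 5 rats precision is low, and signal near background leaves Lpl without a value.

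The Fasn difference was 0.071 with 75th percentile scaling, 0.029 with normexp, 0.20 with array quality weights, 0.017 in the deposited log2 values and 0.12 with the slide's side as a block. Scd1 and Fabp5 were at -0.018 and -0.0082 with its row as a block, and at -0.082 and -0.028 with 4 groups of pressure. Dgat1 was at -0.033 with the side as a block. With 1 rat left out, Fasn ran from -0.20 (without C2) to 0.18 (C1), and was above 0 without H1 or M3. Scd1 ran from -0.064 (XH1) to 0.46 (H1), and was below 0 without XH3. Dgat1 ran from -0.044 (M3) to 0.29 (C2). Fabp5 ran from -0.14 (XH1) to 0.23 (M3), and was below 0 without M2 or C2.

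For the line on pressure, all 8 rats gave -0.078 for Acaca, 0.026 for Dgat1 and -0.077 for Plin2. With 1 rat left out, Acaca ran from -0.080 (without XH3) to 0.90 (M3), and Dgat1 from -0.91 (M2) to 0.26 (M3). Genes at an unadjusted p under 0.05 were 1 with the side as a block (Fabp4, adjusted p 0.891 in limma; 4.77% of all probes), and from 0 to 3 (M2; 15.7% of all probes) with 1 rat left out. Under 75th percentile scaling the median line of all probes was -0.07, with 7 of 8 genes above it, and 184 of 688 probes at an unadjusted p under 0.05 had a positive line, against 504 of 860 as reported.

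At an unadjusted p under 0.05, blast against sham control gave 558 probes (213 higher) with 75th percentile scaling, 441 (183) with the filter on dim probes, 2246 (1100) with array quality weights, against 850 (358) as reported, and from 657 (without C1; 262 higher) to 1649 (H1; 952 higher) with 1 rat left out. Most were lower as reported, and most higher without H1 and with 4 groups of pressure (664 of 1144). After adjustment there was 1 with 4 groups of pressure, and from 0 to 3 (C3) with 1 rat left out (2 without C1), none a probe of the 8 genes. The line gave 1441 probes unadjusted with the side as a block, and from 409 (XH1) to 4744 (M2) with 1 rat left out, with 508 without XH3 and 1301 without M3.

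Title numbers do not pair the rats: deviations from the group means correlated at -0.16 and 0.32 for C1 with H1 and XH1, -0.30 for C2 with M2, and 0.18 and 0.07 for C3 with XH3 and M3. With the number as a block, 850 probes and 0 of the 8 genes had an unadjusted p under 0.05. Averaging a gene's probes gave no separate value, since each had 1 probe.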
